A study of Mus musculus with 9 samples.

Results

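The 9 genes described here, of 43629 genes in the count table, encode transcription factors and receptors of the neural crest and Schwann cell lineage: Sox10, Foxd3, Sox2, Zfp536, Egr2, Pou3f1, Tfap2a, Erbb3 and Ngfr. They were chosen by name, with results of these same cultures known, because several of them had lower counts in Dp1Tyb than in WT cultures. The genotype difference of these genes is therefore given as a description with no test, and nothing is read from its direction. Of the 9 genes, 8 passed the filter on low counts that kept 14567 genes for testing, and Pou3f1 did not.

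RNA was sequenced from 9 cultures of mouse embryonic fibroblasts (MEFs), 4 WT and 5 Dp1Tyb, grown from littermate embryos at E14.5. The labels give the strain of all cultures as C57BL/6J.129P2, and the methods state that the mice had been backcrossed to C57BL/6JNimr. Dp1Tyb mice carry Dp(16Lipi-Zbtb21)1TybEmcf, an added copy of the stretch of mouse chromosome 16 from Lipi to Zbtb21 that corresponds to much of human chromosome 21, and serve as a model of Down syndrome. None of the 9 genes lies on chromosome 16. The embryos had been decapitated and eviscerated before the remaining tissue was trypsinised, and cells were passaged in culture before lysis, so a MEF culture can hold any body wall or limb cell that attached. The WT libraries held 25571442 to 30009361 counted reads each, and the Dp1Tyb libraries 24804539 to 26782380.

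Neural crest cells leave the dorsal neural tube, migrate through the embryo and form peripheral neurons, glia, melanocytes and, in the head, skeleton. Along peripheral nerves they become Schwann cell precursors, then immature Schwann cells and finally myelinating or non-myelinating Schwann cells. Sox10 is needed throughout this path, neuregulin signalling through Erbb3 with Erbb2 keeps the precursors alive, and Pou3f1 and Egr2 act in sequence to start myelination while Sox2 holds it back.

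Normalised counts are counts divided by TMM-scaled library size and brought to the mean library. Scaled to exon length and total counts (RPKM), the WT level was highest for Ngfr at 14.48 ± 5.36 (SD, n = 4). Egr2 followed at 4.52 ± 2.70 and Sox10 at 4.11 ± 1.51, which did not differ beyond their spread. Erbb3 was at 2.49 ± 1.04, Foxd3 at 1.80 ± 0.671, Sox2 at 1.46 ± 0.595 and Tfap2a at 1.32 ± 0.482, with each of the last 3 within the spread of the gene before it. Zfp536 at 0.253 ± 0.0510 and Pou3f1 at 0.0140 ± 0.00797 were the lowest. In Dp1Tyb cultures the order began with Ngfr at 4.88 ± 1.88 (SD, n = 5), Egr2 at 3.02 ± 2.01 and Sox10 at 1.22 ± 0.648 RPKM.

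The sequences before a RefSeq start are shown for 3 of the genes whose genotypes did not overlap, as described below. RefSeq promoter windows (GRCm38.p6) were found for 6 of the 9 genes, Foxd3, Sox2, Ngfr, Zfp536, Egr2 and Tfap2a, with 11 windows in all. Each was cut to the 250 bases before its RefSeq start. The gene positions given below are from GENCODE M21, and the starts can differ. The Zfp536 window lies inside the gene span given below, and the Sox2 window ends short of the gene start given below. Sox10, Erbb3 and Pou3f1 had none. The sequences run 5′ to 3′ on the strand of the gene, and capitals mark CG dinucleotides.
Foxd3, chr4:99656049-99656298, plus strand: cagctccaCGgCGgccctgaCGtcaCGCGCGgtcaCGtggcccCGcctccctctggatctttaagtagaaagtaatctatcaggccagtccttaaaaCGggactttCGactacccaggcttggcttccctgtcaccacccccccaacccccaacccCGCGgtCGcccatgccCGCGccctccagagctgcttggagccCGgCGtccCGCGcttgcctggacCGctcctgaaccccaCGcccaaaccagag
Sox2, chr3:34649745-34649994, plus strand: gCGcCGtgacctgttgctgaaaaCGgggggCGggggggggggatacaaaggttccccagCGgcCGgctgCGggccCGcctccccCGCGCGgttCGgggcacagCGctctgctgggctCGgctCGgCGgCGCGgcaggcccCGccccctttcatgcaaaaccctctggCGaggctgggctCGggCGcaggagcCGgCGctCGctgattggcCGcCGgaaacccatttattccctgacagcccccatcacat
Zfp536, chr7:37769753-37770002, minus strand: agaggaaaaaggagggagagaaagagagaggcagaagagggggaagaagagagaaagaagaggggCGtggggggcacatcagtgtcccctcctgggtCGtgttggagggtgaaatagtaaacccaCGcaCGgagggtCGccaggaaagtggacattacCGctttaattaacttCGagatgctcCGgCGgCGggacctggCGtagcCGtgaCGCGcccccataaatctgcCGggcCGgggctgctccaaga

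These windows were rich in CG dinucleotides, with 27 in Sox2, 21 in Foxd3, 16 in Zfp536 and 16 in Ngfr, beside a median of 6 over 32817 windows of the same length. Their GC content was 72.0%, 65.6%, 58.8% and 70.4%, beside a median of 52.4%. The Egr2 windows had 15 to 26 CG dinucleotides and a GC content of 54.0% to 71.2%. Each Tfap2a window had 10, with a GC content of 47.6% and 60.4%. High CG content was thus not particular to the genes whose genotypes did not overlap. Motifs of the members' own DNA-binding families were searched on both strands with overlaps allowed. The SOX motif ACAAAG occurred 1 time in the Sox2 window, and 16.5% of all windows held it. The SOX motif ACAATG (10.7% of all windows) and the EGR motif GCGNGGGCG (4.70%) occurred in none of the 11 windows. The AP-2 motif GCCNNNGGC (13.7%) occurred in 1 Egr2 window. The POU octamer ATGCAAAT (1.6%) occurred at 1 site that 3 overlapping Egr2 windows share.

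Sox10, an HMG-box factor that defines migrating crest cells and the whole glial lineage, lies at chr15:79154908-79165240 (GRCm38). Its normalised counts were 395, 263, 444 and 197 in WT replicates 1 to 4. In Dp1Tyb replicates 1 to 5 they were 117, 80.1, 179, 78.2 and 42.8. Every Dp1Tyb culture was below every WT culture, yet the gap between the lowest WT culture and the highest Dp1Tyb culture was small beside the spread within each genotype. The mean was 325 ± 114 in WT and 99.4 ± 51.6 in Dp1Tyb (SD, n = 4 and 5), a log2 fold change of -1.71 (SE 0.39).

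Foxd3, a forkhead factor of early crest cells and glial precursors, is a single-exon gene at chr4:99656299-99658622. Counts after normalisation were 137, 81.9, 145 and 69.1 in WT and 26.1, 25.97, 53.0, 29.7 and 21.4 in Dp1Tyb cultures. Dp1Tyb replicates 1, 2, 4 and 5 lay close together well below Dp1Tyb replicate 3, and the genotypes did not overlap. On the log2 scale the fold change was -1.79 (SE 0.33). A small RNA gene, Gm23366, overlaps 89 bases of its exon on the same strand.

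Sox2, a factor of neural stem cells that is kept on in Schwann precursors and immature Schwann cells, is a single-exon gene at chr3:34650405-34652461. Normalised, Sox2 had counts of 114, 70.5, 83.5 and 43.1 in WT and 27.0, 17.3, 42.0, 25.3 and 12.2 in Dp1Tyb cultures. WT replicate 4 and Dp1Tyb replicate 3 were nearly equal, and the genotypes did not overlap by this narrow margin. Sox2 had a log2 fold change of -1.64 (SE 0.38). Sox2 rested on 12 counts in Dp1Tyb replicate 5, for which the exact 95% Poisson interval, covering counting error only, was 6.20 to 20.96 counts.

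Zfp536, a zinc finger gene expressed in the developing nervous system, spans chr7:37472135-37773641. Cultures had normalised counts of 73.1, 64.3, 56.0 and 48.1 in WT and 28.0, 17.3, 25.99, 15.4 and 10.2 in Dp1Tyb cultures. The lowest WT culture was above the highest Dp1Tyb culture by more than the whole Dp1Tyb range. The log2 fold change was -1.63 (SE 0.30). Counts were few, with 10 in Dp1Tyb replicate 5 and an interval of 4.795 to 18.4 counts.

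Erbb3, the neuregulin receptor of Schwann cell precursors, which signals with Erbb2 because its own kinase is weak, lies at chr10:128567523-128589652. In normalised counts it was at 537, 268, 496 and 243 in WT and 154, 99.6, 221, 117 and 62.1 in Dp1Tyb cultures. WT replicates 2 and 4 lay just above Dp1Tyb replicate 3, and WT replicates 1 and 3 far above it. The log2 fold change was -1.56 (SE 0.37).

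Ngfr, the low-affinity neurotrophin receptor p75 used as a surface marker of crest cells and immature Schwann cells, lies at chr11:95568818-95587735. It had the most counts of the 9 genes. Normalised counts of Ngfr were 1771, 1086, 1521 and 777 in WT and 529.8, 341, 689, 422 and 262 in Dp1Tyb cultures. The WT cultures kept the order seen for Erbb3, with replicates 1 and 3 high and replicates 2 and 4 low, and no Dp1Tyb culture reached them. Ngfr had a log2 fold change of -1.52 (SE 0.31).

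These 6 genes were set apart from the other 3 after their values were seen, by the absence of overlap between genotypes, so their number carries no test. Among all 14567 genes tested, 98 (0.673%) lay lower in every Dp1Tyb culture than in every WT culture. Since the genes were chosen for this contrast, the count of 6 of 9 is not read against that share. In a bulk culture, fewer cells of a type and less RNA of a gene per cell cannot be told apart. WT replicate 4 was the lowest WT culture and Dp1Tyb replicate 5 the lowest Dp1Tyb culture for all 6 genes. Dp1Tyb replicate 3 was the highest Dp1Tyb culture for 5 of them, and for Zfp536 it was Dp1Tyb replicate 1.

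**Figure D1:**
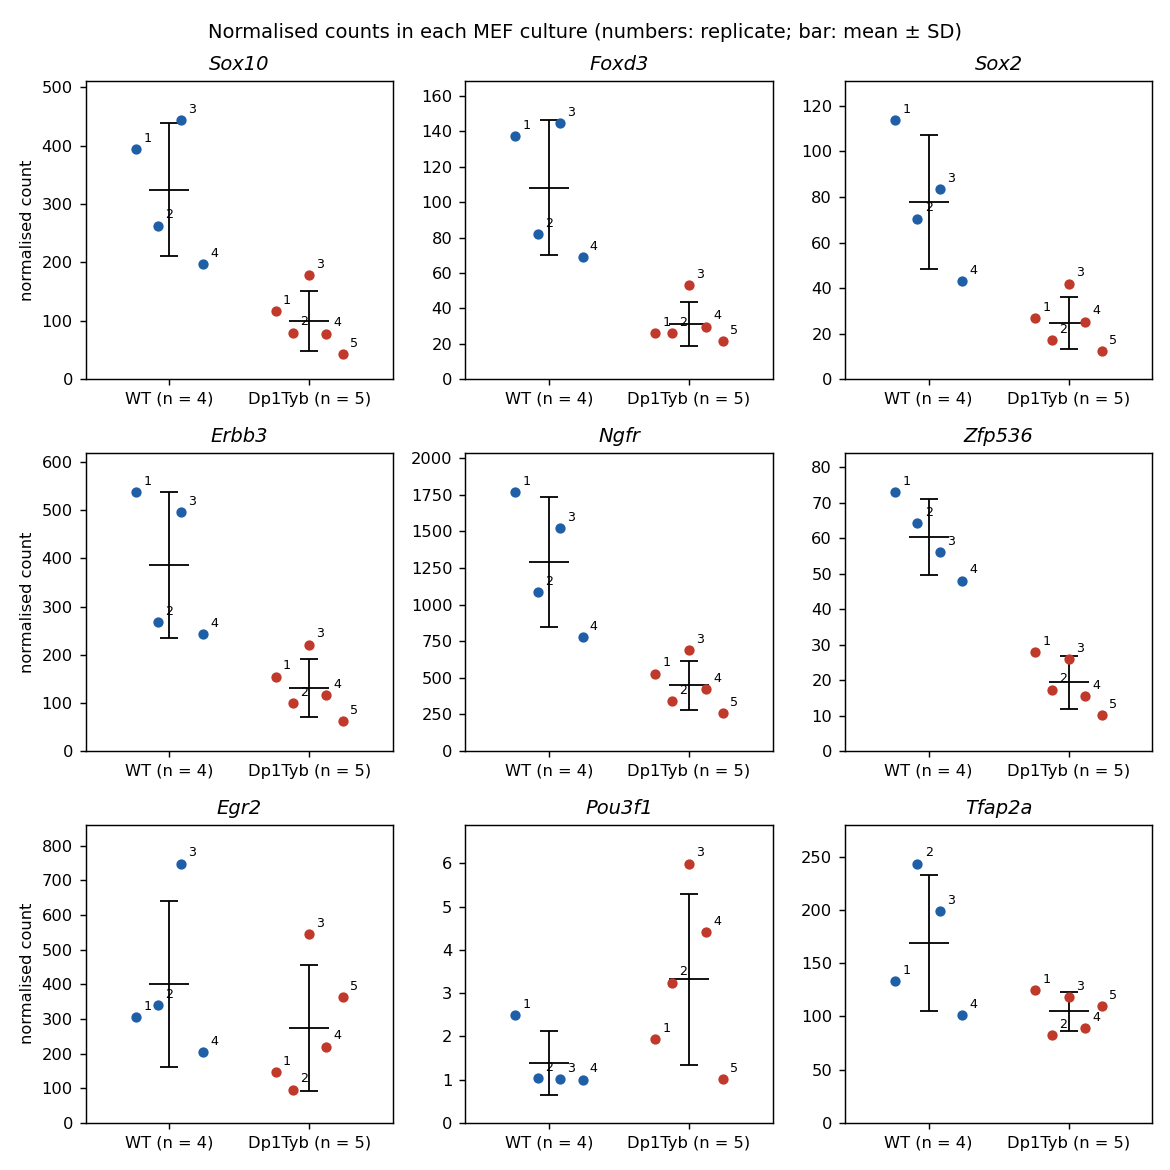
Normalised counts (y axis, from 0) of the 9 genes in each culture, WT in blue and Dp1Tyb in red, with replicate numbers and the mean ± SD of each genotype. In the upper 6 panels no Dp1Tyb culture reaches the lowest WT culture, while Egr2, Pou3f1 and Tfap2a overlap between genotypes.

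The remaining 3 genes overlapped between genotypes. Egr2, a zinc finger factor that drives myelination in Schwann cells and is also an immediate early gene in many other cells, lies at chr10:67535475-67542188. Egr2 had normalised counts of 305, 339.9, 748 and 205 in WT and 148, 96.3, 544, 220.2 and 362 in Dp1Tyb cultures, with 3 of 5 Dp1Tyb cultures above the lowest WT culture. The log2 fold change was -0.54 (SE 0.52), about its own error.

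Tfap2a, an AP-2 factor of early crest that is also used in epidermis and limb mesenchyme, spans chr13:40715302-40738376. Normalised counts of Tfap2a were 133, 244, 199 and 101 in WT and 124, 82.2, 118, 89.2 and 110.0 in Dp1Tyb cultures. The Dp1Tyb cultures formed a narrow band, and WT replicate 4 lay inside it. The log2 fold change was -0.69 (SE 0.26). Genes on the opposite strand overlap 718 bases of its exons, and whether the counting used strand is not given in the sources used here.

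Pou3f1, the POU factor of promyelinating Schwann cells, is a single-exon gene at chr4:124656807-124660655. It had 3, 1, 1 and 1 counts in WT and 2, 3, 6, 4 and 1 counts in Dp1Tyb cultures. All WT cultures and 3 of 5 Dp1Tyb cultures were at or under the floor of 3 counts, so no fold is given and a difference was not detectable at this depth. Mag, a myelin protein, had no more than 3 counts in any culture. Levels of other myelin genes varied widely. Mal had no more than 4 counts in any culture, while in WT Prx had 245 ± 63.7 normalised counts and Pmp22 4837 ± 699. No stage of the lineage is therefore read from these levels.

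Across all genes, edgeR's quasi-likelihood test (Benjamini-Hochberg adjusted p below 0.05) called 24 of 14567 genes (0.165%) different between genotypes and 0 (0%) lower in Dp1Tyb. With 1 culture left out the count of 24 became 2 to 26, lowest without WT replicate 2 or 3. At an unadjusted p below 0.05, 258 genes were lower and 198 higher. None of the 9 members was among the 24, and at an unadjusted p below 0.05 there were 7 lower. With a beta prior, DESeq2, in the setting of the version the authors used, called 20 of 17159 genes (0.117%) lower in Dp1Tyb, and these included the 6 genes Sox10, Foxd3, Sox2, Erbb3, Ngfr and Zfp536. The 2 tools thus disagreed on the call of every one of the 6 genes while giving the same direction, and since this contrast chose the genes, neither count is evidence on them.

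The labels place the cultures in 2 sets, a prefix that is not explained, with WT replicate 1 and Dp1Tyb replicate 1 in set 1 and the other 7 cultures in set 2. Within set 2 (3 WT, 4 Dp1Tyb) the mean log2 difference, Dp1Tyb minus WT, was -1.76 for Sox10, -1.58 for Foxd3, -1.49 for Sox2, -1.50 for Erbb3, -1.44 for Ngfr and -1.71 for Zfp536. The single pair of set 1 gave -1.75, -2.35, -2.03, -1.79, -1.74 and -1.35 in the same order. The 6 genes were lower in Dp1Tyb in both sets. This was fixed by the absence of overlap over all cultures, so the split adds no support for the direction. Egr2 differed by -0.55 in set 2 and -1.04 in set 1, and Tfap2a by -0.78 and -0.09.

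Differences between cultures of 1 genotype were examined next, with the genotype difference removed. For each gene the mean of its genotype was subtracted from log2(normalised count + 1), and the 9 deviations were correlated with those of Sox10. The deviations share libraries and scaling, and the correlations are given as a description. Erbb3 followed Sox10 with r = 0.97 (Spearman's rho 0.93), Ngfr with 0.96 (0.88) and Sox2 with 0.92 (0.88). Foxd3 had r = 0.88 (0.90) and Zfp536 0.85 (0.73). The median over all 14566 other genes was -0.0035, and 0.158% of them exceeded 0.9.

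Ranked by r among those 14566 genes, Erbb3 was at place 3, Ngfr at 7, Sox2 at 17, Foxd3 at 32 and Zfp536 at 54. Egr2, with r = 0.36, was at place 2318, and Tfap2a, with 0.33, at place 2649. Without Dp1Tyb replicates 3 and 5, the 2 cultures farthest from the median of Sox10, r was 0.95 for Erbb3, 0.93 for Ngfr, 0.82 for Sox2, 0.82 for Foxd3, 0.64 for Zfp536, 0.52 for Egr2 and 0.49 for Tfap2a. The 15 pairs among the 6 genes had a median r of 0.89, from 0.54 for Foxd3 with Zfp536 to 0.98 for Sox2 with Ngfr. Egr2 correlated with Foxd3 at 0.61 and with Zfp536 at -0.04.

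**Figure D2:**
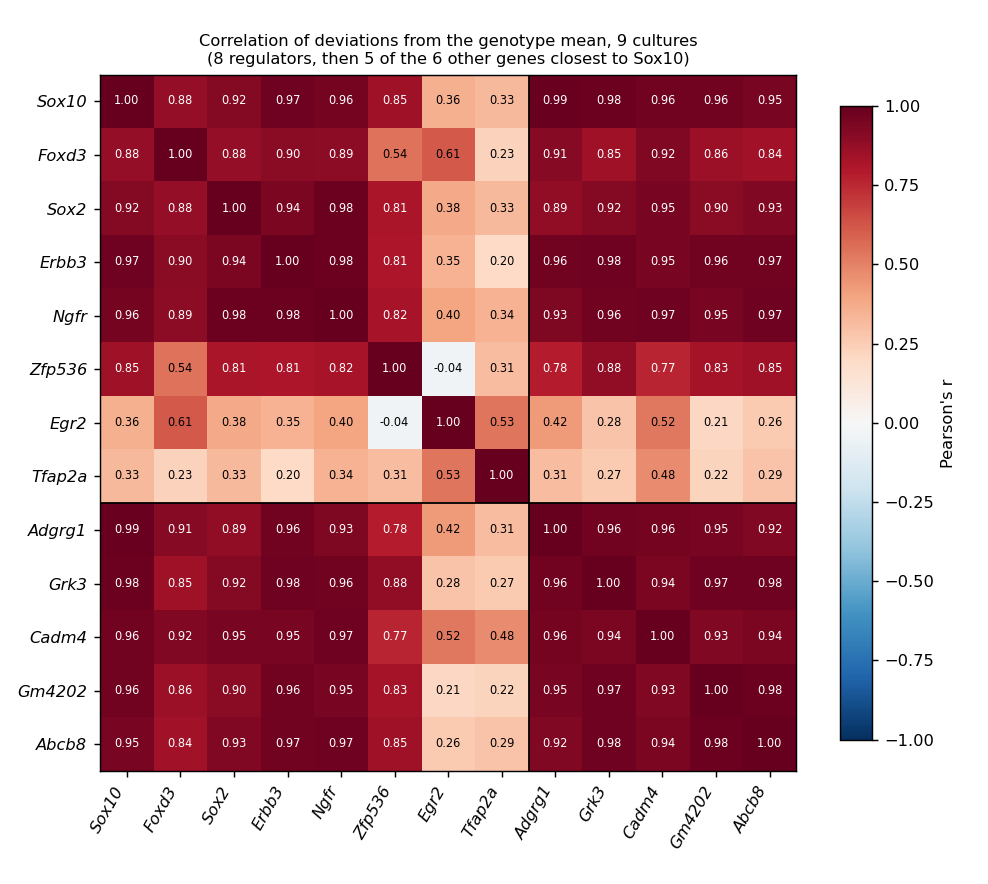
Pearson's r between deviations of log2(normalised count + 1) from the genotype mean over 9 cultures, for the 8 regulators tested and 5 of the 6 other genes with the highest r with Sox10. Colour and printed values give r. Egr2 and Tfap2a had r of 0.36 and 0.33 with Sox10, while Egr2 had 0.61 with Foxd3 and 0.53 with Tfap2a.

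Of the 6 genes that are no members and lay closest to Sox10, 5 are reported here: Adgrg1 (r = 0.99), Grk3 (0.98), Cadm4 (0.96), Gm4202 (0.96) and Abcb8 (0.95). Cadm4, an adhesion molecule of Schwann cells that binds axons, was on the list of Schwann lineage structural genes. Adgrg1, an adhesion receptor, had 171 ± 38.5 normalised counts in WT and 82.6 ± 25.8 in Dp1Tyb. Of these genes, 3 were nearly equal between genotypes, with log2 fold changes of 0.12 for Grk3 (a receptor kinase), 0.12 for the predicted gene Gm4202 and 0.0019 for Abcb8 (a mitochondrial transporter). A high r over 9 cultures thus also occurred in genes that did not share the genotype difference.

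The stoichiometry of the group was compared within each culture as the ratio of counts to Sox10, which needs no scaling between libraries. Sox10 itself ranged 10.4-fold from the lowest to the highest culture. Erbb3 ranged 8.65-fold in level, but its ratio to Sox10 was between 1.02 and 1.49, a 1.46-fold range. The ratio ranged 1.72-fold for Sox2, 1.79-fold for Ngfr, 1.94-fold for Zfp536 and 2.24-fold for Foxd3, beside level ranges of 9.31-fold, 6.77-fold, 7.18-fold and 6.76-fold. These level ranges span both genotypes and hold the genotype difference by which the genes were set apart. Division by Sox10, which shares that difference, removes it, so narrower ratio ranges were partly fixed in advance.

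Ratios to Sox10 overlapped between genotypes for all 5 genes. Erbb3 had 1.18 ± 0.148 counts per Sox10 count in WT and 1.35 ± 0.119 in Dp1Tyb, Ngfr 3.995 ± 0.442 and 4.83 ± 0.916, and Foxd3 0.334 ± 0.0186 and 0.345 ± 0.104. Sox2 had 0.241 ± 0.0458 and 0.258 ± 0.0450, and Zfp536 0.1998 ± 0.0563 and 0.207 ± 0.0388. The ratio ranged 10.97-fold for Egr2 and 7.63-fold for Tfap2a, more than their levels did (7.77-fold and 2.96-fold). Both genes were left out of the group because their genotypes overlapped, so division by Sox10 adds its genotype difference to their ratios. The contrast with the 5 genes follows in part from that split and is no separate evidence. In Dp1Tyb replicate 5, where Sox10 was lowest at 42 counts (exact 95% Poisson interval 30.3 to 56.8), Egr2 was at 8.48 and Tfap2a at 2.57 counts per Sox10 count, the highest ratios of any culture.

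**Figure D3:**
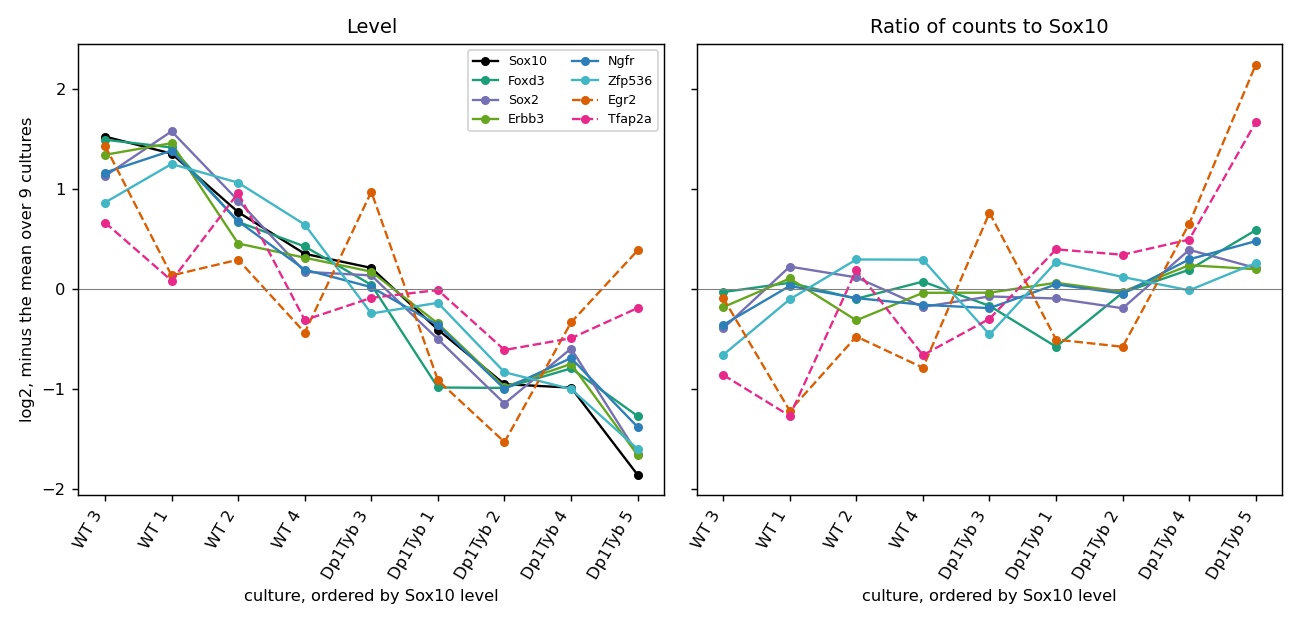
Left, log2 normalised count of each gene minus its mean over 9 cultures (y axis), with cultures ordered by Sox10. Right, the same for the ratio of counts to Sox10, on the same axis. The 5 solid lines flatten on the right, with fold ranges of 1.46 to 2.24, while the dashed lines of Egr2 (10.97) and Tfap2a (7.63) do not. The ranges span both genotypes, so this contrast follows in part from how the genes were set apart.

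Ratios of 2 other glial genes to Sox10 were also taken. Cdh19, an adhesion molecule of Schwann cell precursors, had 1.07 ± 0.196 counts per Sox10 count in WT and 1.41 ± 0.408 in Dp1Tyb, with overlap between genotypes. Lgi4, a secreted factor needed for Schwann cell maturation, had 0.906 ± 0.0830 and 1.32 ± 0.455 with overlap. Cdh19 and Lgi4 were chosen for this ratio after their values were seen, and the differences were not tested.

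The spread between cultures of 1 genotype was wide for several of the regulators. The SD of the log2 deviations was 0.67 for Sox10, 0.64 for Erbb3 and 0.54 for Ngfr, beside medians of 0.24, 0.22 and 0.15 over genes of a similar mean count (within 0.5 on the log2 scale). These values stood at percentiles 90, 91.0 and 95.9 of those genes. Egr2 had the widest spread of the 8 genes, 0.91, at percentile 96.9. For the low genes Foxd3, Sox2 and Zfp536 the SDs of 0.50, 0.62 and 0.46 stood at percentiles 65.3, 72.2 and 50.2.

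Egr2 was set beside immediate early genes after its values were seen. Egr1, the best known member of its family, had 9491, 10558, 15037 and 8593 normalised counts in WT and 5792, 3589, 13074, 7800 and 9423 in Dp1Tyb cultures. Its deviations correlated with those of Egr2 at r = 0.97 and with those of Sox10 at 0.32. Only Doc2g (0.97) had a higher r with Egr2 among all genes tested. Ier2 reached 0.96 and Egr3 0.76, while Fos was at 0.57, Junb at 0.47, Atf3 at 0.47, Nr4a1 at 0.39, Fosb at 0.32 and Dusp1 at 0.04. Of the summed marker lists, the melanocyte markers correlated with Egr2 at 0.81, the macrophage markers at 0.68, the cartilage markers at -0.67 and the neuron markers at -0.69. Only 1 melanocyte marker, Pmel, passed the filter on low counts. It had 29.2 ± 6.18 normalised counts in WT and 31.0 ± 9.41 in Dp1Tyb, and its own r with Egr2 was 0.80. The summed Schwann lineage structural genes correlated with Egr2 at 0.62 and with Sox10 at 0.40. The part of such cells in the Egr2 values was not tested.

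**Figure D4:**
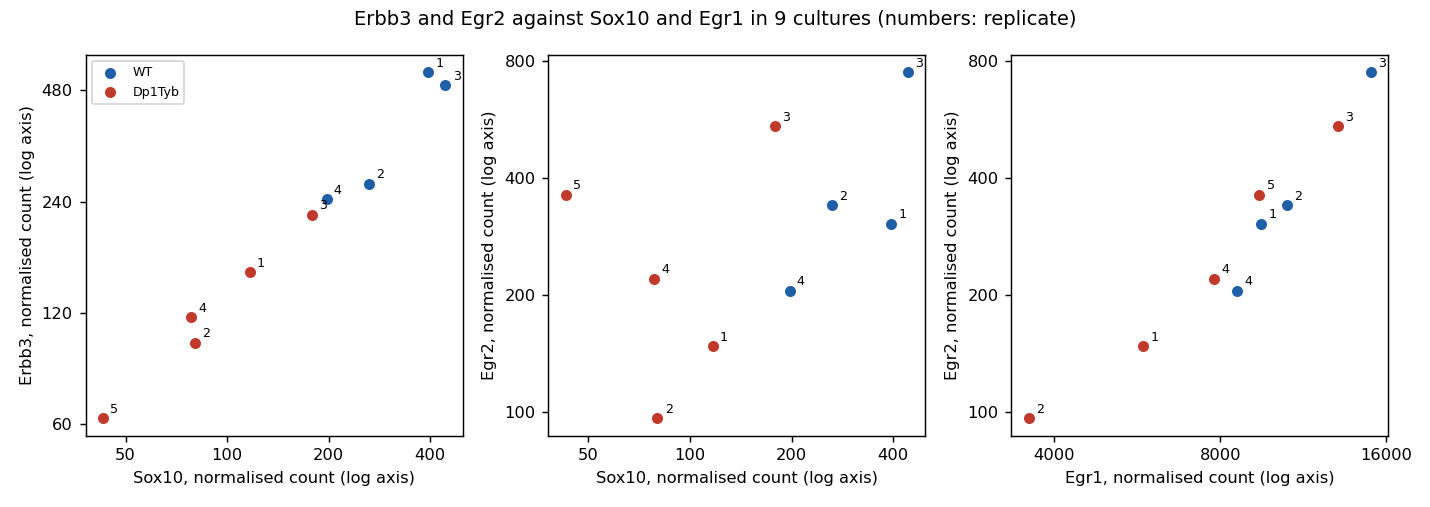
Normalised counts per culture on log axes, WT in blue and Dp1Tyb in red with replicate numbers. Erbb3 lies along 1 line with Sox10 (left, r = 0.97 within genotype), Egr2 scatters against Sox10 (middle, 0.36) and lies along a line with Egr1 (right, 0.97).

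Other genes of the pathways were read from 4 lists that hold no member. Of 40 other regulators of neural crest and Schwann cells, 30 were tested and edgeR called 0 in either direction. At an unadjusted p below 0.05, Tfap2b and Jun were lower and Nab1 higher, and DESeq2 with its beta prior called none. The median log2 fold change was -0.0059, beside 0.0027 over all genes. Tfap2b, the closest relative of Tfap2a, had 267 ± 112 normalised counts in WT and 158 ± 45.9 in Dp1Tyb, a log2 fold change of -0.76 (SE 0.30, adjusted p = 1.00). Ednrb, the endothelin receptor of crest cells, had -0.64 (SE 0.36, adjusted p = 1.00) and Msx1, a homeobox factor of crest and limb mesenchyme, -0.47 (SE 0.46, adjusted p = 1.00).

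Broad mesenchymal regulators on that list were nearly equal between genotypes. Snai2 had 1278 ± 153 and 1277 ± 54.0 normalised counts in WT and Dp1Tyb, Twist1 1288 ± 102 and 1293 ± 196, and Sox9 521 ± 120.02 and 567 ± 88.3. Their correlations with Sox10 were -0.25, 0.36 and -0.22. None of the 30 genes exceeded r = 0.9 with Sox10, and the highest value was 0.62. Pax7, Neurog1 and Neurog2, markers of dorsal crest and of crest-derived neurons, had no more than 3 counts in any culture.

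Of the 16 genes of the ErbB and neuregulin pathway, 13 were tested, edgeR and DESeq2 called 0, and none reached an unadjusted p below 0.05. The median log2 fold change was 0.07. Erbb2, the kinase partner of Erbb3, had 1072 ± 182 normalised counts in WT and 959 ± 120 in Dp1Tyb (log2 fold change -0.16, SE 0.13, adjusted p = 1.00). Nrg1, the ligand of Erbb3, had 285 ± 25.4 and 318 ± 47.5 (0.15, SE 0.13, adjusted p = 1.00). Errfi1, an inhibitor of ErbB kinases, and Lrig1, which lowers ErbB receptor levels, had log2 fold changes of 0.21 (SE 0.38) and 0.18 (SE 0.11), both at an adjusted p of 1.00. The summed pathway list was 1422 to 1474 CPM in WT and 1479 to 1608 in Dp1Tyb, ranges that nearly met without overlap. Shc1, Ptpn11 and Adam10 had the most normalised counts of the list in WT (6992 ± 180, 6361 ± 723 and 5148 ± 442), far above Erbb2 and Nrg1. The sum was not tested.

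Of the 17 genes of the neurotrophin pathway, 15 were tested and edgeR and DESeq2 called 0, with 1 lower at an unadjusted p below 0.05. That gene was Rtn4r, the Nogo receptor, which forms a complex with Ngfr. It had 131 ± 15.8 normalised counts in WT and 79.3 ± 19.7 in Dp1Tyb, a log2 fold change of -0.72 (SE 0.20, adjusted p = 0.749), with no overlap between genotypes. The median of the list was 0.03. Ntrk2, the receptor of brain-derived neurotrophic factor, had a log2 fold change of -0.48 (SE 0.53, adjusted p = 1.00).

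Of the 26 Schwann lineage structural genes, 21 were tested, with a median log2 fold change of -0.44. The 4 tested genes of each of the cartilage and the keratinocyte and epithelial marker lists also had a median of -0.44 and -0.43, and the lists were not tested against each other. edgeR called 0 of them, and 8 were lower and 0 higher at an unadjusted p below 0.05, among them Cdh19, Gap43, L1cam, Gjc3, Col28a1, Cadm4 and Lgi4. Cdh19, Cadm4 and Lgi4 were called lower by DESeq2 with its beta prior. Cadm4 had 554 ± 167 normalised counts in WT and 210.1 ± 71.9 in Dp1Tyb, a log2 fold change of -1.40 (SE 0.28) with an edgeR adjusted p of 0.212 and a DESeq2 adjusted p of 0.0005. Cdh19 had 339.9 ± 119 and 131 ± 54.9, a log2 fold change of -1.38 (SE 0.33) with adjusted p values of 0.477 and 0.0116.

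Gjc3, a gap junction protein of glia, had -1.51 (SE 0.62, edgeR adjusted p = 1.00), with overlap between genotypes. The 6 genes of the list with the highest WT counts had log2 fold changes of 0.07 (Ncam1), -0.06 (Pmp22), 0.06 (Adgrg6), -0.57 (Gap43), 0.0017 (Itga4) and -0.92 (Col28a1). The list was put together with earlier results of these cultures known, so its median is no independent evidence of direction.

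**Figure D5:**
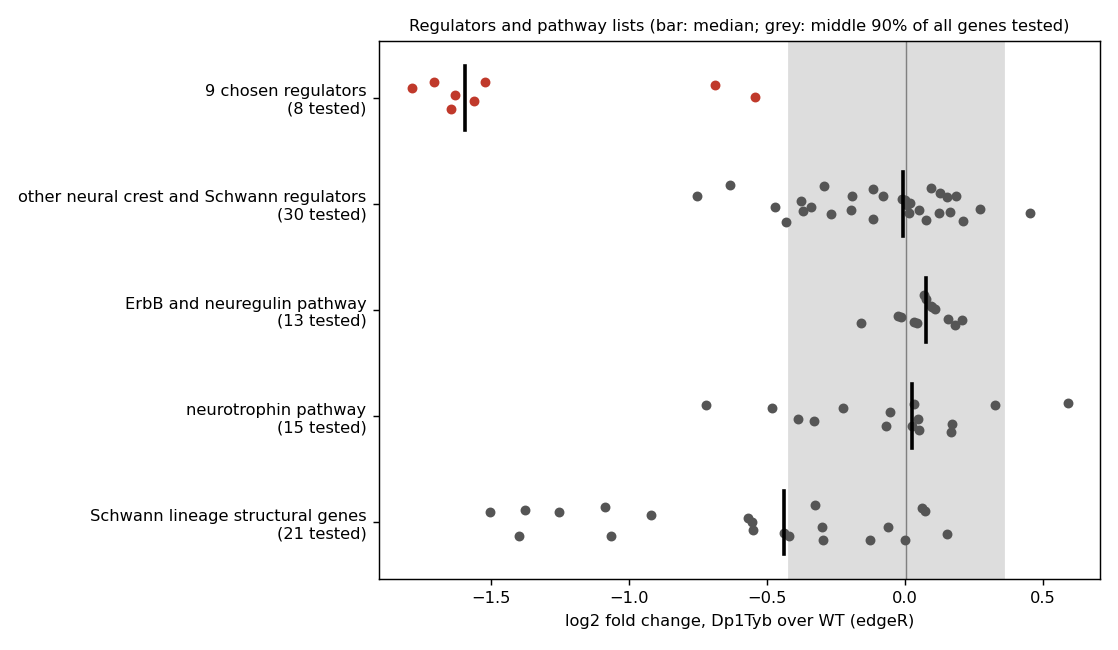
edgeR log2 fold change, Dp1Tyb over WT (x axis), of each tested gene of the 9 regulators (red) and of 4 pathway lists (grey), with black bars at the medians. The grey band holds the middle 90% of all genes tested, from -0.42 to 0.36, and the medians of the other 4 lists lie between -0.44 and 0.07.

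Markers of other cells in the cultures were summed per culture as CPM on TMM-scaled totals. The 6 genes together made up 52.1 to 114 in WT and 15.5 to 45.7 in Dp1Tyb. The 12 fibroblast markers made up 48062 to 58863 in WT and 42358 to 68865 in Dp1Tyb, by far the highest sum of any marker list. The 8 macrophage markers ranged from 67.6 to 253 in WT and from 16.3 to 370.2 in Dp1Tyb, and their sum had r = -0.08 with Sox10. Sums of the 14 neuron markers (65.8 to 88.2 and 67.8 to 114), the 10 spinal cord progenitor and oligodendrocyte markers (133 to 176 and 114 to 325) and the 7 endothelial markers (10.5 to 19.4 and 10.3 to 23.3) overlapped between genotypes. Of the 4 endothelial markers tested by edgeR, Emcn was higher in Dp1Tyb at an unadjusted p below 0.05 (log2 fold change 1.77, SE 0.58), and 2 had a negative log2 fold change. Pecam1 and Cdh5, too low to test, had means of 2.19 and 2.01 normalised counts in WT and 6.56 and 11.5 in Dp1Tyb.

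The 10 melanocyte markers, of another crest derivative, summed to 1.51 to 2.42 in WT and 1.19 to 2.38 in Dp1Tyb. Tyrp1, Dct, Slc45a2, Oca2 and Gpr143 had no more than 3 counts in any culture. Of the 14 neuron markers, Elavl3, Th and Rbfox3 were likewise at or under 3 counts, while Tubb3 (1271 ± 491 and 1316 ± 356 normalised counts), Map2 (486 ± 305 and 451 ± 191) and Stmn2 (264 ± 144 and 397 ± 308) were detected in both genotypes. Of the 10 spinal cord progenitor and oligodendrocyte markers, Pax6, Sox1, Sox3 and Nkx2-2 were at or under 3 counts, while Nkx6-1 had 6 to 21 counts, Slc1a3 135 to 786 and Nes 498 to 2558. The part of such cells in the Sox2 values was not tested. The 8 keratinocyte and epithelial markers summed to 9.85 to 21.7 and 8.70 to 13.0. The 4 tested markers of this list had r with Sox10 from -0.27 to 0.84, with a median of 0.55. Krt18, with 142 ± 15.8 normalised counts in WT and 164 ± 31.0 in Dp1Tyb, had the lowest r. Krt14, a keratin of basal epidermis, had the highest. It had 96.9 ± 111 normalised counts in WT, from 19.0 to 261, and 25.8 ± 24.7 in Dp1Tyb. Its part in the values of the 6 genes was not tested. The 8 skeletal muscle markers summed to 12.2 to 72.4 and 23.8 to 252.0, with r = -0.33 with Sox10. The sums overlapped, but 3 of the 4 markers tested were higher in Dp1Tyb at an unadjusted p below 0.05 (Myh3, Tnnt1 and Des), with a median log2 fold change of 1.23, and edgeR called 0 of them. Des, an intermediate filament protein of muscle, had 295 ± 105 normalised counts in WT and 754 ± 265 in Dp1Tyb (edgeR adjusted p = 0.547), and DESeq2 with its beta prior called it higher (adjusted p = 0.0174). Myh3, an embryonic myosin, had 1.04 to 2.04 normalised counts in WT and 3.86 to 30.3 in Dp1Tyb, while the muscle determination genes Myod1, Myog and Myf5 had no more than 3 counts in any culture. The part of muscle cells in the values of the 6 genes was not tested.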

How the data were processed

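RNA of 4 WT and 5 Dp1Tyb MEF cultures was sequenced from a stranded mRNA kit. The authors trimmed adapters with Trim Galore, mapped reads to GRCm38 with TopHat2 2.0.12, discarded reads aligned to several places and deposited htseq-count read counts per Ensembl gene. Deposited normalised counts and a DESeq2 1.6.3 table of fold changes and p-values were not used. Of 43629 genes, 42462 were matched to GENCODE M21, which gave symbols, positions and exon lengths. The annotation release of the counting is not given in the sources used here. The members and lists were chosen with earlier results of these data known.

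Counts were tested with edgeR 4.0.16 in R 4.3.3 (TMM, its filter on low counts, quasi-likelihood test, two-sided, no covariate, adjusted p below 0.05 over 14567 genes). The test and the correlation step were checked on simulated data. Genes were named by a rule: the 9 members, the 6 other genes with the highest r with Sox10, the called or else the 3 largest changes of each pathway list, and partner or lineage genes such as Erbb2 and Nrg1. Some genes that the rule or the lists hold are not reported here. DESeq2 1.42.0, other scalings and filters, the set number, a replicate block, set 2 alone and each culture left out in turn were alternatives. Promoter windows came from RefSeq. Python 3.11.15 was used with numpy 2.4.6, pandas 2.3.3, scipy 1.17.1 and matplotlib 3.10.9. Each culture came from a separate embryo, and intervals and floors cover counting error only.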

Additional observations from a re-analysis of the deposited data

Results flagged for a closer look

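Within each genotype, the highest and lowest culture of each of the 9 genes and of the sum of the 6 genes was compared with its nearest neighbour, as a share of the range of the group (Dixon's ratio). Of 20 groups 2 stood out, and chance marks about 1 in 20 independent groups. These groups were not independent, since the 6 genes correlated and their sum was included, so that share is only a rough guide. Foxd3 in Dp1Tyb replicate 3, at 52.988 normalised counts, was far above the other 4 Dp1Tyb cultures (ratio 0.736), and the same culture was the highest Dp1Tyb culture for Sox10, Sox2, Erbb3 and Ngfr. Pou3f1 in WT replicate 1, at 2.492 normalised counts, stood above the other WT cultures (ratio 0.977), with 3 counts against 1 in each of them.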

How the results depend on the processing

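With 4 and 5 cultures, counts of called genes depended on the tool and on single cultures. DESeq2 called 68 genes with its defaults and 67 with its beta prior, against 24 by edgeR, and in both settings it called 6 of the 9 genes and 3 genes of the 4 pathway lists, against 0 and 0. The cause was not tested. Only set 2 gave 1 call over all genes. The replicate block gave 0, and 0 of the 9 genes. Replicate numbers paired no cultures by the labels, and same-numbered cultures correlated at 0.247, 0.732, 0.030 and 0.382, with 1 of 4 WT and 3 of 4 Dp1Tyb cultures closest to their own number. Leaving out 1 culture gave 2 to 26 calls over all genes (2 without WT replicate 2 or 3, 3 without Dp1Tyb replicate 5, 8 without WT replicate 4, 9 without Dp1Tyb replicate 4, 14 without Dp1Tyb replicate 1 or 3, 15 without WT replicate 1), and 0 among the 9 genes and the pathway lists.

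Genes lower without overlap numbered 6 to 7, with Tfap2a added without WT replicate 4. Filters and covariates cannot change this count, and leaving out cultures cannot lower it, so it is no check of stability. No alternative turned the direction of any of the 8 log2 fold changes. For the 6 genes without overlap this was largely fixed in advance, so it is no check of stability either. For Sox10 the log2 fold changes ran from -2.03 without Dp1Tyb replicate 3 to -0.64 with the beta prior. That prior shrinks values toward 0 and gave -0.78 for Foxd3, -0.61 for Sox2, -0.62 for Erbb3, -0.73 for Ngfr and -0.78 for Zfp536. Egr2 ran from -0.95 without Dp1Tyb replicate 3 to -0.05 without WT replicate 3. The median r of the 7 other genes with Sox10 was 0.88, and 0.81 to 0.93 with 1 culture left out, 0.82 without the 2 cultures farthest from the median, 0.94 in set 2 alone and 0.84 with the replicate block.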
